A study of Mus musculus with 9 samples.

Results

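The 35 genes described here are interferon-stimulated genes, a set of antiviral and signalling genes chosen by symbol from the 20467 genes of one mouse count table. Their messenger RNA was measured by RNA sequencing in RAW264.7 cells, a mouse macrophage-like cell line. The study recovered RNA bound to Roquin, an RNA-binding protein that recognises short stem-loops in messenger RNA and recruits the machinery that shortens their poly(A) tails. Each library type has 3 biological replicates. The Roquin IP libraries hold RNA precipitated on protein A/G beads with rabbit antibodies against Roquin, the control IP libraries hold RNA from beads with no antibody, and the input libraries hold RNA of the lysate before precipitation. All cells had received lipopolysaccharide (LPS) at 100 ng/ml for 2 h, so every library comes from stimulated cells of 1 line, and no induction by LPS can be read from them. The control had no unrelated antibody, so it measures RNA held by the beads alone.

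LPS is sensed by Toll-like receptor 4, which signals through the adaptor TRIF to make macrophages secrete interferon beta. Interferon beta binds its receptor on the same or neighbouring cells, and the kinases JAK1 and TYK2 then activate a transcription factor complex that includes STAT2 and IRF9. That complex binds the interferon-stimulated response element in promoters and switches on genes that sense viral RNA, block its translation or degrade it.

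The interferon-stimulated response element was looked up in the members' promoters before any RNA value is read. The core letters GAAANNGAAA were searched on both strands of windows of 300 bases, from 250 before to 50 after each transcript start, in RefSeq sequence of build GRCm38.p6. A window was given for 26 of the 35 members, and 14 of those 26 (53.8%) held the core, against 3.99% of 27025 genes in the same table. These 14 were Bst2, Ddx58, Eif2ak2, Gbp2, Gbp3, Gbp5, Ifih1, Ifit1, Ifit3, Isg15, Oas1a, Oas3, Rsad2 and Stat2, and copies of the core overlap one another in some windows. A match is a description of the letters and not evidence of a bound factor. The lines below give the core in capitals with its flanks for 4 members with different roles, each written along the gene's own strand.
Isg15, chr4:156200865-156200894, minus strand: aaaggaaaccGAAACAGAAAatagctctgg
Ifit1, chr19:34640794-34640823, plus strand: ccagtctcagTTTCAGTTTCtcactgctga
Eif2ak2, chr17:78882535-78882564, minus strand: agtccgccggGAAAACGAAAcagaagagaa
Bst2, chr8:71537577-71537606, minus strand: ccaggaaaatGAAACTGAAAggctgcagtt
In Ifit1 the core lies on the other strand, so it reads TTTCNNTTTC along the gene.

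The second sequence of interest is the stem-loop that Roquin binds. In the authors' deposited table all 35 members carry the entry for no predicted decay element, while 188 genes of that table (0.919%) have a predicted one. A simple form of the element, TTC then 3 loop bases in the order pyrimidine, purine, pyrimidine, then GAA, was searched in the longest 3′ UTR of each gene in GENCODE M21. It occurred in 1 of the 35 members (2.86%) and in 6.6% of the 9448 tested genes with a 3′ UTR. Members had a median 3′ UTR of 1152 bases and tested genes one of 1398 bases. The member was Trim25, which encodes a ubiquitin ligase that activates the RNA sensor RIG-I. Its match is shown beside the constitutive decay element of Tnf, the best-known Roquin target, with the 3 stem pairs and the loop in capitals.
Trim25, chromosome 11, base 3342 of a 3′ UTR of 3572 bases: ccaagacTTCTGTGAAtcctgtc
Tnf, chromosome 17, base 549 of a 3′ UTR of 764 bases: acatgttTTCTGTGAAaacggag
The 9 capital bases are the same in both. The flanks of the Tnf element add 4 further pairs to the stem, counting G with T as a pair, for 7 in all, and those of the Trim25 match add 0.

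The count table gave 1799390 to 12975767 reads per library, and the input libraries were the shallowest at no more than 2122288 reads. The unit of all levels is CPM, reads of a gene per 1e+06, after TMM scaling, which sets libraries to a common level for most genes. At this depth 1 CPM stands for 2.02 to 11.6 reads, and 3 reads, taken as the limit of detection, stand for 0.258 to 1.49 CPM (counting error only). Of 9567 genes with enough reads to test, 28 were members. The cells' identity was read from marker genes fixed for the purpose: 10 of 11 macrophage markers in the table were testable, and their summed level was 1440 to 2240 CPM in the input. Of 8 lymphocyte markers 5 had no read in any library and only Lck was testable, and their sum was 1.98 to 7.12 CPM in the input and at most 11 CPM elsewhere. Of 6 dendritic cell markers only Bst2, itself a member, was testable, and their sum was 20.3 to 23.7 CPM in the input. The sum of the 8 fibroblast and epithelial markers did not exceed 0.688 CPM anywhere. The libraries are bulk RNA, so fewer cells holding a transcript and less of it per cell cannot be told apart.

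The members made up a small part of the RNA. They took 0.203, 0.195 and 0.147% of the reads in the 3 input libraries, 0.147, 0.161 and 0.133% in the control IP and 0.0773, 0.0685 and 0.0721% in the Roquin IP. The Roquin IP shares lay under all the others, as shares of unscaled reads. In the Roquin IP libraries Tnf alone took 733448 of 3547517, 3535599 of 12975767 and 2275585 of 12898468 reads. Its part in the lower shares was not tested. After TMM scaling the members summed to 1151, 1124 and 899.4 CPM in the Roquin IP, 1314, 1323 and 964.7 CPM in the control IP and 1757, 1589 and 1315 CPM in the input. On that scale the Roquin IP and control IP overlapped, the control IP overlapped the input by a small margin, and every Roquin IP sum lay below every input sum.

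Expression of the members in the input spanned a wide range. Per kilobase of the longest transcript, Oasl1 was the highest at 151 ± 52.4 CPM per kilobase (SD, n = 3), followed by Isg15 at 55.3 ± 22.8, Trim25 at 30.3 ± 3.69, Bst2 at 25.2 ± 5.53 and Rtp4 at 20.9 ± 3.38. Ifih1 came next at 18.9 ± 9.81 CPM per kilobase. The lowest Oasl1 library stood above the highest Isg15 library on this scale. Below Oasl1 the neighbours in this order lay within each other's spread. At the other end, 7 members had too few reads to test: Zbp1, a sensor of left-handed nucleic acid (33 reads over all 9 libraries), Ifit3 (72), Mx1 (41), the guanylate-binding proteins Gbp2 (10), Gbp3 (46) and Gbp5 (7), and the exonuclease gene Isg20 (91). Gbp5 had no read in any input or Roquin IP library, and Gbp2 had none in 5 of the 9 libraries.

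**Figure D1:**
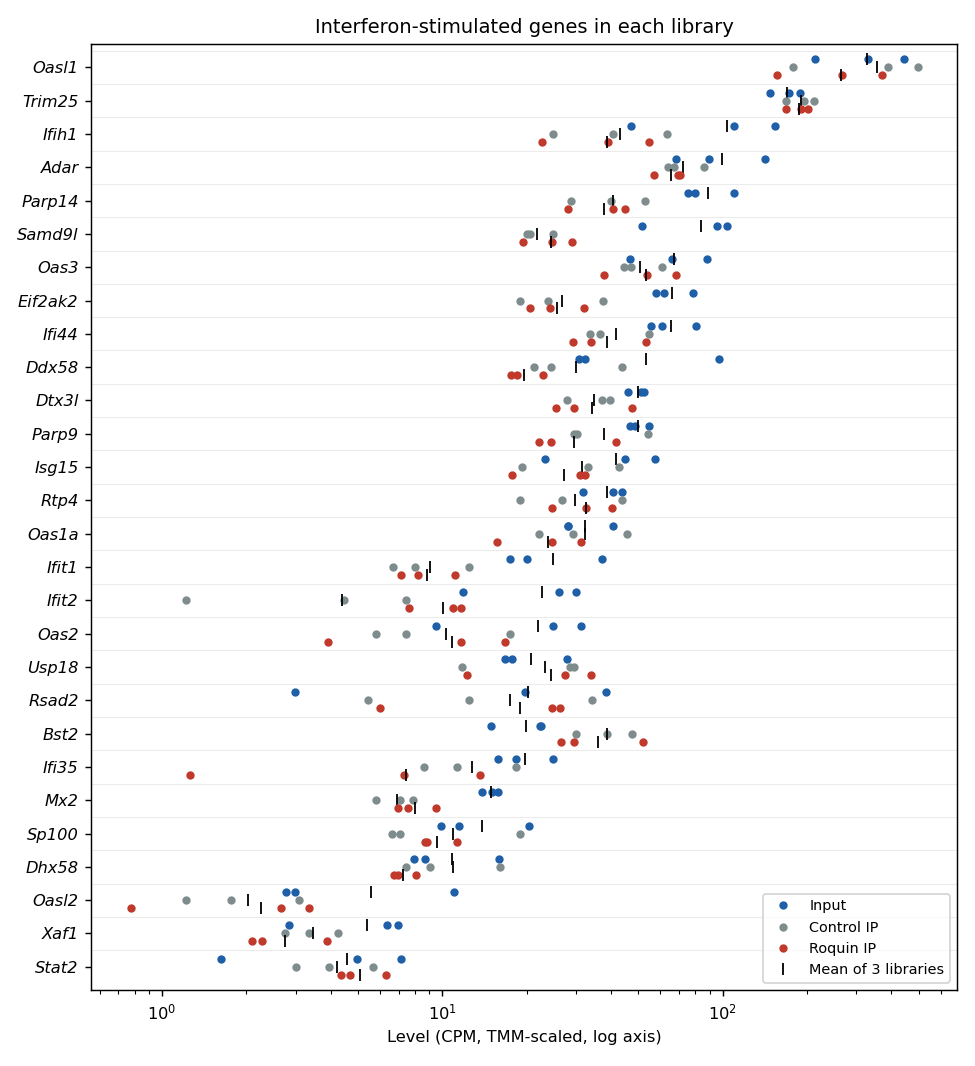
Level of each of the 28 tested members in each of the 9 libraries, in TMM-scaled CPM on a log axis, with genes ordered by their input mean and a tick at the mean of the 3 libraries of a group. Oasl1 and Trim25 stand highest, Stat2 is the lowest in the input, and for most genes the Roquin IP and control IP points lie among each other.

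Oasl1 and Isg15 are the abundant members on a per-length scale. Oasl1 encodes a protein of the oligoadenylate synthetase family that, in mouse, limits translation of Irf7 mRNA. Its level was 330, 442 and 213 CPM in input libraries 1, 2 and 3, 390, 498 and 179 CPM in the control IP and 266, 370 and 156 CPM in the Roquin IP. Library 3 was the lowest and library 2 the highest in each group, and all 3 groups overlapped. Isg15, the ubiquitin-like modifier attached to proteins during the interferon response, was at 44.8, 57.3 and 23.3 CPM in the input, 19.2, 42.7 and 33.0 CPM in the control IP and 31.0, 32.4 and 17.8 CPM in the Roquin IP. Its groups overlapped too. Neither gene passed the test in any comparison (edgeR's quasi-likelihood test, adjusted p between 0.376 for Isg15 in Roquin IP against input and 0.909 for Oasl1 in control IP against input).

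The main question of the study, which mRNAs the Roquin antibodies recover above the beads, can be asked of each member. No tested member was higher or lower in the Roquin IP than in the control IP. Among all 9567 genes, 360 (3.76%) were higher and 0 (0.00%) were lower at an adjusted p under 0.05 in edgeR's quasi-likelihood test with Benjamini-Hochberg adjustment over all genes. The count for members was 0 of 28 in both directions, also at an unadjusted p under 0.05, where 759 genes were higher and 204 lower. DESeq2 gave 0 of 28 in both directions as well, with 1 member, higher, under an unadjusted p of 0.05, and it called 475 genes higher and 6 lower. A background of 3.76% would place about 1 call among 28 genes, so the count of 0 does not set the members apart from other genes.

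The sizes bound what the depth could show. The median log2 fold change of the members, Roquin IP minus control IP, was -0.08, with a range from -0.71 to 1.15, beside a median of -0.12 over all genes tested. The quartiles of the members lay at -0.25 and 0.07 and those of all genes at -0.38 and 0.24. For 20 of the 28 members the upper bound of the 95% interval was under a log2 fold change of 1, and for 26 it was under 2. The same comparison gave 7.57 for Tnf, from 2340, 1760 and 1040 CPM in the control IP to 308000, 447000 and 220000 CPM in the Roquin IP, and 6.95 for Socs1, the interferon-signalling inhibitor described with the pathway genes. The highest upper bound of any member was 2.48. Recovery at the size seen for Tnf or Socs1 therefore lay outside the interval of every tested member.

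**Figure D2:**
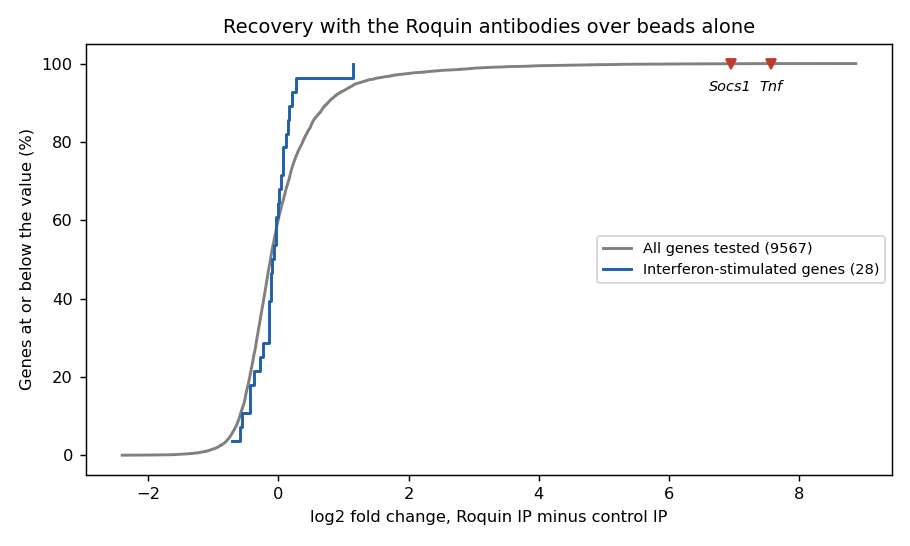
Share of genes (%) at or below each log2 fold change, Roquin IP minus control IP, for all 9567 genes tested and for the 28 tested members, with Tnf and Socs1 marked at their values. The members' curve ends at 1.15, while Socs1 stands at 6.95 and Tnf at 7.57.

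The member nearest to recovery was Ifit2, which encodes a protein that binds viral RNA and impairs its translation. It was at 11.7, 10.9 and 7.64 CPM in the Roquin IP, 1.22, 7.45 and 4.47 CPM in the control IP and 26.1, 30.1 and 11.9 CPM in the input. All Roquin IP values lay above all control IP values, the only member of which that was true, while 10.7% of all genes tested showed such a separation upward and 8.00% downward. The first control IP library had 4 Ifit2 reads. The log2 fold change against the control IP was 1.15 (SE 0.54) and did not pass the test (adjusted p = 0.50), and it was 0.76 (adjusted p = 0.652) without that control library and 1.68 (adjusted p = 0.277) without control IP library 2. Ifit2 was thus between the control IP and the input in the Roquin IP, and had the lowest control IP to input value of the members.

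The other members singled out by their place in this comparison did not pass either. Stat2, the transcription factor subunit specific to type I and III interferon signalling, had the second highest value: it was at 6.29, 4.68 and 4.35 CPM in the Roquin IP, 3.96, 5.68 and 3.01 CPM in the control IP and 1.63, 7.12 and 4.96 CPM in the input. Roquin IP minus control IP gave 0.26 in log2 (adjusted p = 0.921). Its groups overlapped, and the sign of its change turned when libraries were scaled by their totals alone (-0.57). Ifi35, an interferon-induced leucine zipper protein, had the lowest: it was at 1.26, 7.33 and 13.6 CPM in the Roquin IP, 11.3, 8.62 and 18.4 CPM in the control IP and 24.8, 15.8 and 18.3 CPM in the input, for a change of -0.71 (adjusted p = 0.741). Its value rested on single libraries: it was -0.29 without Roquin IP library 1, which had 3 reads, -1.44 without Roquin IP library 3 and -0.33 without control IP library 3. Ddx58, the gene of the RNA sensor RIG-I, was at 17.6, 18.5 and 22.8 CPM in the Roquin IP, 43.9, 24.5 and 21.3 CPM in the control IP and 97.3, 32.4 and 30.7 CPM in the input, for a change over control IP of -0.59 (adjusted p = 0.728). Its first control IP library was high, and the change was -0.21 without it.

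Trim25, the member with a stem-loop match, was among the steadiest genes of the group. It was at 201, 190 and 168 CPM in the Roquin IP, 195, 211 and 168 CPM in the control IP and 172, 148 and 189 CPM in the input. All groups overlapped. The log2 fold change of Roquin IP over control IP was -0.04 (SE 0.25, 95% interval -0.56 to 0.49, adjusted p = 0.972). A recovery of Trim25 above 0.49 in log2 therefore lay outside its interval, and a smaller one is not settled by these libraries.

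The authors' deposited table gives its own ratio and p-value for Roquin IP over control IP. In that table all 35 members have a p of 1, as do 13265 of the 13759 genes with a p, and 249 genes have one under 0.05. The ratios of the members in the authors' deposited table run from 0 for Gbp5 and, above 0, from 0.59, with a median of 0.94, to 2.82 for Zbp1. Both extremes belong to untested genes: Zbp1 had 14 reads in the Roquin IP and 5 in the control IP, and Gbp5 had 0 and 7.

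Against the input the members behaved less evenly. Among all genes 521 (5.45%) were higher in the Roquin IP and 267 (2.79%) lower, while 0 of 28 members were higher and 4 were lower: Samd9l, Ifit1, Eif2ak2 and Parp14. At an unadjusted p under 0.05, 1 member was higher and 11 were lower, as were 1157 and 1025 of the 9567 genes. DESeq2 called 0 members higher and 6 lower, and 712 and 542 genes. The count of lower members was 1 without Roquin IP library 1 or 2 or input library 1, and 2 without Roquin IP library 3 or input library 2. The members' median log2 fold change, Roquin IP minus input, was -0.71, beside -0.01 over all genes, and 24 of 28 members lay below 0, as did 50.5% of all genes. The libraries of the 2 groups did not overlap, with the Roquin IP below, for 10 members (Ddx58, Eif2ak2, Ifi35, Ifi44, Ifit1, Ifit2, Mx2, Parp14, Parp9 and Samd9l), where 14.3% of all genes showed this. They did not overlap with the Roquin IP above for Bst2 alone, where 16.5% of genes showed this.

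The control IP, which shares the input libraries with that comparison, gave fewer calls among the members. Among all genes 78 (0.815%) were higher in the control IP than in the input and 29 (0.303%) lower, and among the members 0 were higher and Samd9l was lower. At an unadjusted p under 0.05, 1 member was higher and 7 were lower, as were 1036 and 912 of the 9567 genes. DESeq2 called 0 members higher and 6 lower, and 405 and 401 genes. The count of lower members was 4 without control IP library 1 and 0 without control IP library 2 or 3 or input library 1 or 2. The members' median log2 fold change, control IP minus input, was -0.49, beside 0.02 over all genes, with 23 of 28 below 0. The macrophage markers, 10 of them testable, also had medians below 0, at -0.72 for control IP minus input and -0.34 for Roquin IP minus input. None of them passed the test, while with the replicate block 5 and 3 of the 10 were lower. Their summed level was 1110 to 1770 CPM in the control IP and 1370 to 2310 CPM in the Roquin IP, none of the 11 was at 0 throughout, and their part in the members' values was not tested. The control IP lay below the input in all libraries for 8 members (Dtx3l, Eif2ak2, Ifi44, Ifit1, Ifit2, Mx2, Parp14 and Samd9l; 10.8% of genes) and above it for Bst2 (12.2% of genes). The same 3 input libraries enter both comparisons, so their values for a member are not independent.

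**Figure D3:**
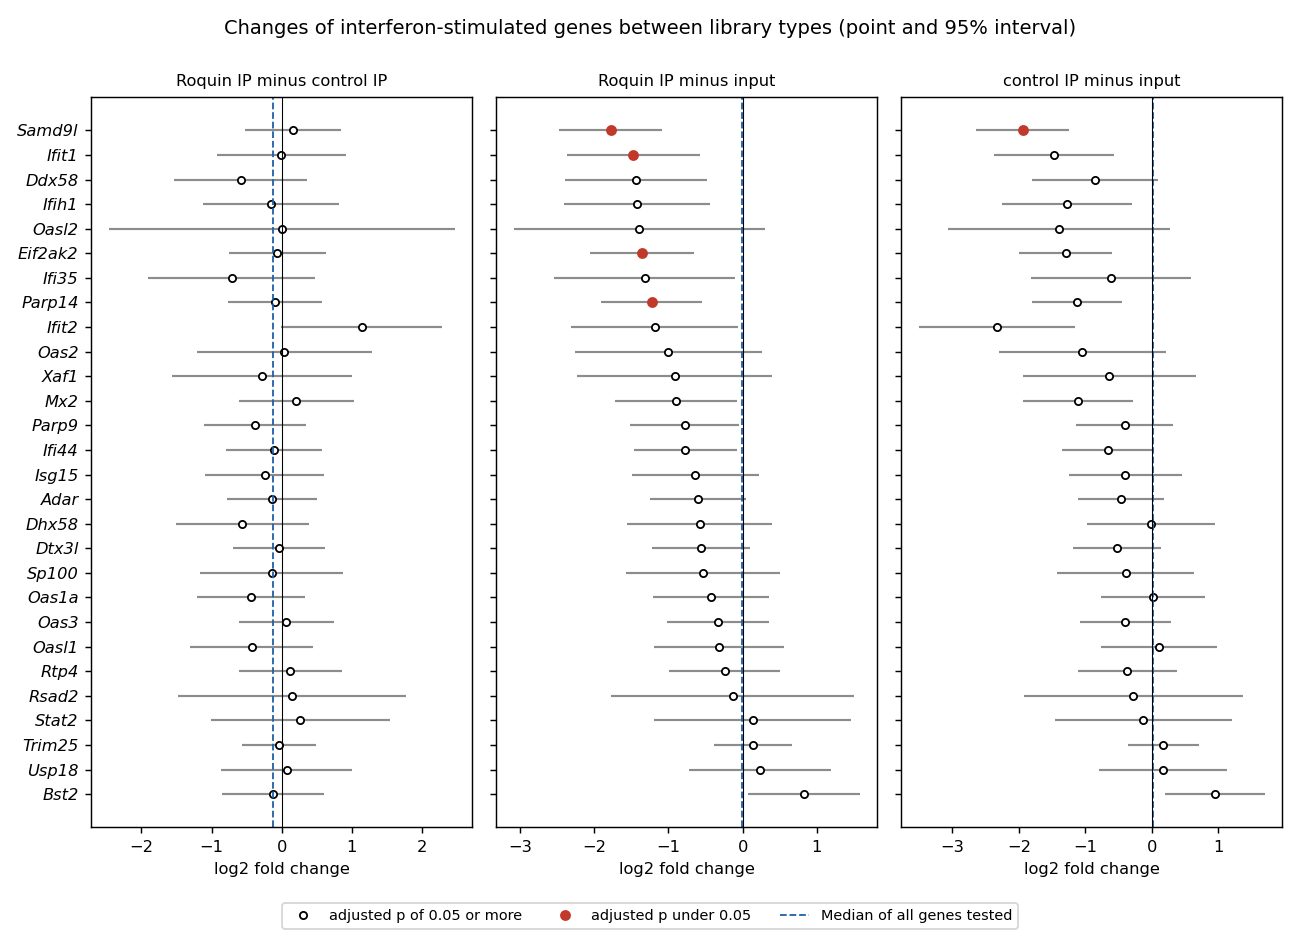
Log2 fold change of each tested member with its 95% interval in the 3 comparisons, with genes ordered by Roquin IP minus input; filled red points have an adjusted p under 0.05, and the dashed line marks the median of all genes tested. No point is filled in the left panel, 4 are in the middle panel and Samd9l alone in the right panel.

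Samd9l had the lowest Roquin IP to input value of the members. It encodes an antiviral protein related to SAMD9 that restricts poxviruses. Its level was 95.3, 104 and 51.6 CPM in the input, 20.1, 24.9 and 20.5 CPM in the control IP and 24.7, 29.1 and 19.4 CPM in the Roquin IP. Every IP library lay below every input library. The Roquin IP was 3.44-fold lower than the input (-1.78 in log2, with SE 0.33 and adjusted p = 0.0037) and the control IP 3.84-fold lower (-1.94, SE 0.33, adjusted p = 0.0202). The first call held without any 1 library, while the second was lost without control IP library 2 (adjusted p = 0.0698) or 3 (0.06), or input library 1 (0.0884) or 2 (0.0949), and with only the 6 libraries compared (0.0614). With offsets for GC content and length in each library, the control IP value was -1.30 (adjusted p = 0.0493) and the Roquin IP value -1.51 (0.00366). A short stretch of its transcript, 246 bases, matches the gene model Gm20559 at 95.1%.

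Eif2ak2 encodes PKR, the kinase that stops translation on sensing double-stranded RNA. It was at 78.6, 58.1 and 62.0 CPM in the input, 18.9, 23.9 and 37.4 CPM in the control IP and 20.6, 24.3 and 32.1 CPM in the Roquin IP. Both IP groups lay below the input without overlap. The log2 fold change was -1.36 for Roquin IP over input (SE 0.33, adjusted p = 0.0209) and -1.30 for control IP over input (adjusted p = 0.0608). The former missed the threshold without Roquin IP library 1 (0.112) or 2 (0.0833) or input library 1 (0.0687). With any 1 Roquin IP or input library left out, its size stayed between -1.555 and -1.212.

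Parp14, a mono-ADP-ribosyltransferase of the macrophage interferon response, was at 110, 79.9 and 75.4 CPM in the input, 53.0, 40.0 and 28.9 CPM in the control IP and 44.9, 40.7 and 28.2 CPM in the Roquin IP. Every IP value again lay below the lowest input value. Roquin IP over input gave -1.23 (SE 0.32, adjusted p = 0.0279), and the call was lost without any 1 of the 3 Roquin IP libraries (adjusted p between 0.0679 and 0.14) or without input library 1 (0.0943) or 2 (0.0638). With any 1 Roquin IP or input library left out, the Roquin IP over input value of Parp14 stayed between -1.36 and -1.04. Control IP over input gave -1.13 (adjusted p = 0.0772).

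Ifit1 encodes a protein that binds the cap of RNA lacking 2′-O methylation. It was at 20.0, 37.2 and 17.4 CPM in the input, 12.5, 6.66 and 7.99 CPM in the control IP and 7.13, 11.1 and 8.22 CPM in the Roquin IP. The groups did not overlap with the input, though Roquin IP library 1 held only 17 reads. Roquin IP over input gave -1.48 (SE 0.42, adjusted p = 0.0443), lost without any 1 of the 3 Roquin IP libraries (adjusted p between 0.0804 and 0.174), without input library 1 (0.0538) or 2 (0.202), or with offsets for GC content and length (0.0519). With any 1 Roquin IP or input library left out, the Roquin IP over input value of Ifit1 stayed between -1.68 and -1.06. Control IP over input gave -1.48 (adjusted p = 0.0801).

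Bst2 went the other way. It encodes tetherin, a membrane protein that holds budding viruses on the cell surface. It was at 22.4, 22.5 and 14.9 CPM in the input, 47.5, 30.0 and 38.8 CPM in the control IP and 52.0, 26.5 and 29.5 CPM in the Roquin IP. Every IP value lay above every input value. The log2 fold change was 0.83 for Roquin IP over input (SE 0.35, adjusted p = 0.174) and 0.95 for control IP over input (SE 0.35, adjusted p = 0.150), neither of which passed. Rtp4, a Golgi chaperone gene induced by interferon, showed no such separation at 31.8, 43.9 and 40.7 CPM in the input, 18.9, 26.8 and 43.6 CPM in the control IP and 24.7, 32.5 and 40.3 CPM in the Roquin IP.

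Libraries with the same number deviated together from their group means, so a fit with the replicate number as a block was read beside the one above. With the replicate block, 8 members were lower in the Roquin IP than in the input, among 8.04% of all genes: the 4 named, with adjusted p of 0.000347 for Samd9l, 0.00167 for Parp14, 0.00386 for Eif2ak2 and 0.0213 for Ifit1, and 4 more. These were Ifih1, the gene of the RNA sensor MDA5 (-1.37, adjusted p = 0.00277), Ddx58 (-1.19, 0.0291), Parp9, the partner of the ubiquitin ligase DTX3L (-0.83, 0.0319), and Ifi44, an interferon-induced protein (-0.79, 0.0223). Against the input the control IP had 6 lower members in the blocked fit, among 5.78% of all genes, and 1 higher, among 6.65%. The lower ones were Ifit2 (-2.29, adjusted p = 0.0126), Samd9l (-1.88, 0.00164), Ifit1 (-1.41, 0.0347), Eif2ak2 (-1.35, 0.0101), Ifih1 (-1.23, 0.0107) and Parp14 (-1.15, 0.00634). Bst2 was the higher one (0.94, 0.0431). Ifih1 shows what the block does: its input libraries were at 154, 110 and 47.1 CPM, with 40.8, 63.5 and 24.8 CPM in the control IP and 39.0, 54.5 and 22.6 CPM in the Roquin IP. Its groups overlapped through library 3, yet within each number the input was the highest.

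By family, calls against the input were spread over several roles. Of 4 testable nucleic acid sensors Eif2ak2 was lower, and the median log2 fold change was -1.39 for Roquin IP minus input and -1.06 for control IP minus input. Of 2 testable IFIT genes Ifit1 was lower in the Roquin IP, with medians of -1.33 and -1.90 in the same order. None of the 5 oligoadenylate synthetase genes passed, with medians of -0.43 and -0.40. Of 6 genes of ISG15 and ubiquitin-like modification, Parp14 was lower, with medians of -0.60 and -0.40. Of 5 testable RNA-acting and other antiviral effectors, Samd9l was lower in the Roquin IP and in the control IP. Their medians were -0.24 and -0.37, and their values for Roquin IP minus input ran from -1.78 to 0.83. Some counts here are uncertain, since no source used here gives the handling of strand or of repeated sequence. Oas1a matches Oas1g at 97.6% and Mx2 matches Mx1 at 95.3% over long stretches, and Parp9 shares 458 exon bases with Dtx3l on the opposite strand. Ifit3 matches Ifit3b at 97.8% over 1700 bases, and Isg15 matches the gene model AC151275.1 at 95.2% over 482 bases. Rtp4 shares 296 exon bases with the gene model Gm45338 on the same strand, and Adar shares 1365 with Chrnb2 on the opposite strand. The low read count of Ifit3 and the levels of Isg15 and Rtp4 given above carry this uncertainty.

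GC content moved with the change over the input. Over the 28 members, Pearson's r between GC content of the longest transcript and log2 fold change was 0.55 (Spearman's rho 0.52) for Roquin IP minus input and 0.68 (0.64) for control IP minus input. Over 9499 genes the same values were 0.21 (0.27) and 0.42 (0.43). For Roquin IP minus control IP they were -0.38 (-0.31) over members and -0.15 (-0.19) over genes. These are descriptions across genes of the same libraries, and genes are not independent replicates. The 4 members that were lower in the Roquin IP had a median GC content of 43.6%, from 38.8% in Samd9l to 46.3% in Parp14, and the other 24 had one of 50.3%. All 28 had a median of 49.2% and tested genes one of 49.3%. With offsets for GC content and length in each library, the members' median log2 fold change was -0.91 for Roquin IP minus input and -0.60 for control IP minus input, and that of all genes was -0.15 and about 0 (-0.005).

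**Figure D4:**
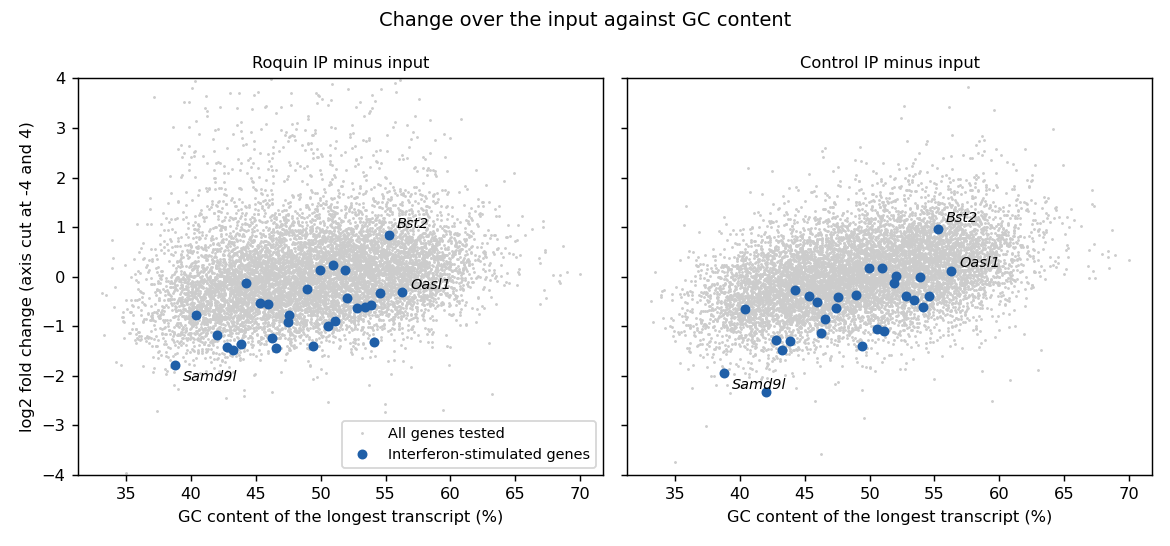
Log2 fold change over the input against GC content of the longest transcript (%), for the Roquin IP and the control IP, with all genes tested in grey and the 28 members in blue; the vertical axis is cut at -4 and 4. Samd9l, with the lowest GC content of the members at 38.8%, lies at -1.78 and -1.94, and Bst2 at 0.83 and 0.95.

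The shared deviations by number can be seen in single genes. Replicate 3 was the lowest of its group in all 3 groups for 5 of 28 members (17.9%; 10.9% of all genes), namely Ifih1, Oasl1, Parp14, Rsad2 and Sp100. The widest case, picked after its values were seen, was Rsad2, whose product viperin makes a chain-terminating nucleotide. It was at 38.3, 19.8 and 2.98 CPM in the input, 34.1, 12.5 and 5.42 CPM in the control IP and 24.7, 26.2 and 6.00 CPM in the Roquin IP. Oas1a and Oas2 showed the opposite, with replicate 3 the highest in all groups (7.14% of members, 12.1% of genes). Replicate 1 and replicate 2 were each the highest in all groups for 4 members (14.3%), beside 10.8% and 6.39% of genes. They were the lowest in all groups for 1 member (3.57%, beside 12.4% of genes) and 0 members (beside 6.27%). Correlations of library deviations over the 28 members ran from 0.147 to 0.742 between same-numbered libraries of different groups and from -0.75 to 0.357 between different numbers. Centring on group means ties these ranges to each other, so the latter adds no separate evidence of pairing.

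**Figure D5:**
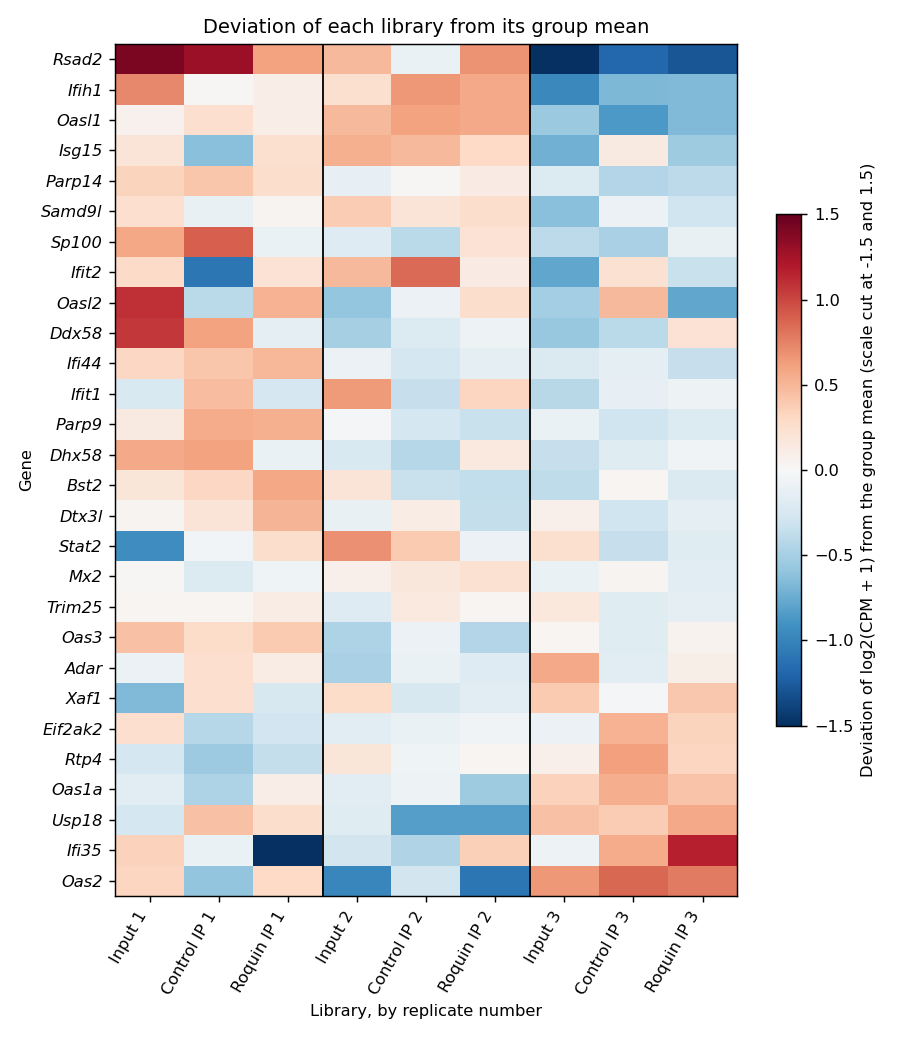
Deviation of each library from its group mean in log2(CPM + 1) for the 28 tested members, with libraries set side by side by replicate number and colours cut at -1.5 and 1.5. Rsad2, Ifih1 and Oasl1 are low in all 3 libraries numbered 3, and Oas2 is high there.

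Genes that act before and after the members in the pathway were read from 3 lists. Of the 16 genes listed for type I interferon induction, with the interferon genes Ifnb1 and Ifna4 among them, 14 were testable. Of these 0 differed between Roquin IP and control IP (median log2 fold change -0.02). Ikbke, the gene of a kinase that activates IRF3, was lower in the Roquin IP than in the input, at 18, 24.8 and 20.6 CPM against 69.6, 60.5 and 60.5 CPM, with 35.6, 36.4 and 23.3 CPM in the control IP (log2 fold change -1.58, SE 0.30, adjusted p = 0.00454). Ifnb1 itself was near the limit of detection, at 0.407, 5.93 and 2.48 CPM in the input.

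All 14 genes of the interferon receptor and JAK-STAT list were testable, and 1 was higher in the Roquin IP than in the control IP. That was Socs1, whose product inhibits JAK kinases: it was at 96.9, 131 and 308 CPM in the Roquin IP, 0.305, 0.784 and 2.41 CPM in the control IP and 0, 0.791 and 3.47 CPM in the input. Its log2 fold change was 6.95 (SE 0.73, adjusted p = 2.25e-05) over the control IP and 7.07 (adjusted p = 4.47e-05) over the input. Socs1 had only 1, 4 and 28 reads in the control IP and 0, 2 and 7 in the input. The size of its change is therefore less certain than its direction. The receptor genes Ifnar1 and Ifnar2 and the factor gene Irf9 did not pass. Jak1 (-1.05, adjusted p = 0.0215) and the phosphatase gene Ptpn6 (-1.03, adjusted p = 0.0249) were lower in the Roquin IP than in the input.

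A further list of 50 interferon-stimulated genes outside the 35, of which 40 were testable, was read last. None differed between Roquin IP and control IP, with a median of -0.12. With the replicate block Ifi203, of the family of DNA-binding interferon-inducible proteins, was higher (1.02, adjusted p = 0.012), after 1.05 with an adjusted p of 0.495 without it. The blocked fit called 528 of all 9567 genes higher in that comparison. Over the input, the blocked fit put Ifi203 at -0.34 in the Roquin IP (adjusted p = 0.32) and -1.36 in the control IP (0.00436). Its gain over the beads thus stood beside a control IP below the input, with no gain over the input. Against the input the median of the list was -0.36 for the Roquin IP and -0.20 for the control IP. Parp11 was higher in the Roquin IP (2.14, SE 0.47, adjusted p = 0.0125). Its control IP value over the input was 1.68 (adjusted p = 0.0777, and 0.0193 with the replicate block). Between Roquin IP and control IP it gave 0.46 (adjusted p = 0.785), so its gain over the input was not particular to the Roquin IP. Mndal, of the same family as Ifi203, was lower in the Roquin IP (-1.29, adjusted p = 0.0361) and in the control IP (-1.75, adjusted p = 0.0342).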

How the data were processed

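RNA of 9 libraries (Roquin IP, control IP and input, 3 biological replicates each, per the labels' design text) was sequenced from TruSeq libraries. The deposited table gives raw read counts per gene, a ratio of Roquin IP over control IP and a p-value, all made by the authors, and a text class for the predicted decay element. CASAVA 1.8.2, BWA and DESeq 1.8.3 are named per the submitters' processing notes; no source used here gives the genome build, the annotation or how strand was handled. The file header calls the deposited ratio log2, but its values are linear, since none is below 0. A further 7480 rows without a symbol hold no value and were left out.

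Counts were tested with edgeR 4.0.16 in R 4.3.3 (filterByExpr with a minimum count of 10, TMM factors, quasi-likelihood test, all 9 libraries in 1 fit), with Benjamini-Hochberg adjustment over 9567 genes and a threshold of 0.05. The common biological coefficient of variation was 0.35. Scripts were tested on simulated data. Alternatives were DESeq2 1.42.0, RLE factors, library size alone, no filter, only the 6 libraries compared, each library left out, and the replicate block. Offsets for GC content and length were added after the data were seen.

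The labels give each group numbers 1 to 3. The labels do not state that these numbers pair the libraries. Deviations from group means correlated between same-numbered libraries at 0.157 to 0.612 over genes in all 9 pairs, and at -0.463 to -0.00896 between different numbers. Centring on group means pulls the latter negative when the former are positive, so only the former bear on pairing. The main fit takes the libraries as unpaired. The replicate block takes them as paired and gave 8 rather than 4 lower members in Roquin IP against input, and 6 rather than 1 in control IP against input.

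Lengths, GC content and 3′ UTRs came from GENCODE M21, which matched 99.3% of genes tested and all 35 members, and near copies from BLAST 2.17.0 (at least 95% over 200 bases). Promoters came from RefSeq. Full values are given for members that passed a test, the 5 with the highest input level per kilobase, and the 2 highest and 2 lowest changes in Roquin IP against control IP. Members, lists and rules were chosen with earlier results of these data known.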

Additional observations from a re-analysis of the deposited data

How the results depend on the processing

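Counts of members called in Roquin IP against control IP were 0 in each direction under every alternative except library size alone. Library size alone gave 13 of 28 members lower, beside 3708 of 9567 genes. That scaling moved the median of all genes from -0.12 to -0.96 and that of the members to -0.93, so the calls moved with all genes; Ifi35 (-1.51, adjusted p = 0.0489) and Ddx58 (-1.37, 0.028) were then called lower and Stat2 turned to -0.57. In Roquin IP against input the 4 lower members became 19 with library size alone (median of all genes -0.76), 8 with the replicate block, 12 with the replicate block and GC and length offsets, and 1 to 6 with 1 library left out. In control IP against input the 1 lower member became 6 with DESeq2, 5 with no filter, 0 with only the 6 libraries compared, 6 with the replicate block with or without the offsets, and 0 to 4 with 1 library left out, and 1 higher was added by the block alone. Calls over all 9567 genes moved too: lower calls in Roquin IP against input were 267 at first, 2668 with library size alone, 769 with the block and 1038 with the block and offsets. In control IP against input they were 29 at first, 401 with DESeq2, 553 with the block and 361 with the block and offsets. The replicate block changed no other count of members beyond 1.5 times. The causes were not tested. Of the values that single members' changes took under these alternatives, 104 kept their direction and side of the threshold, 19 lost the call, 2 gained it and 1 reversed. The 104 include many values of Ifit2, Stat2, Ifi35 and Ddx58 in Roquin IP against control IP, which were not called at first and had no call to lose. All 19 losses fell on the changes against the input that were called at first, so the total of 104 overstates how steady those calls were. The input libraries, with 1799390 to 2122288 reads, limit what can be read of members near 3 reads.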
